A study of Homo sapiens with 9 samples.

Results

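The pool of siRNAs directed at every transcript of ENAH, the gene for the actin regulator hMENA, was compared with a non-targeting pool in H1650, an established human line of non-small cell lung cancer. The members of this comparison are 6 of the 9 libraries of the series, chosen by their labels: 3 that received the non-targeting pool (ON-TARGETplus, here control) and 3 that received the pool against ENAH (siGENOME SMARTpool, here siMENA). All genes were considered. Cells of both groups were transfected at 20 nM with the same lipid reagent and collected on day 3. The remaining 3 libraries received a mix of siRNAs against exon 11a of ENAH alone (here siMENA11a), and their values are shown for contrast. They also entered the filter on low values and the fit that gave the standard errors and p-values below. The study's design text calls the 3 libraries of a group biological replicates, without saying whether they came from separate passages of the line. Each group rests on 1 siRNA preparation, and the control and siMENA pools come from different product lines, so an effect of the pool as such and an effect of ENAH loss cannot be told apart within this comparison.

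hMENA belongs to the Ena/VASP proteins, which sit at the tips of growing actin filaments, keep capping proteins off their ends and bring in profilin-bound actin. These proteins gather at the leading edge, at cell junctions and at focal adhesions, where integrins connect the extracellular matrix to the actin cytoskeleton. An siRNA lowers the transcript that it pairs with, and it can also lower other transcripts through partial pairing of its first bases, mostly in 3' UTRs.

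Values are FPKM, that is, fragments scaled by transcript length and by the mapped fragments of the library, so levels can be compared between genes. A difference is given on the log2(FPKM + 1) scale with its standard error (SE) from limma, which understates changes of genes near or under 1 FPKM. A gene was called when its Benjamini-Hochberg adjusted p over all 13273 genes tested was under 0.05. The deposited table holds no read counts, so depth is unknown, and the FPKM of a library summed to between 558754 and 592930. All 10 epithelial markers were present, with summed levels of 5161 to 5527 FPKM in control and 5054 to 5303 FPKM in siMENA libraries. The markers of fibroblasts summed to 6.07 to 10.8 and 7.31 to 12.1 FPKM, those of leukocytes to 15.6 to 20.5 and 14.5 to 18.1 FPKM, and those of endothelium to 1.24 to 1.81 and 1.00 to 1.40 FPKM. Of the defining markers of those cells, DCN, LUM, PDGFRB, PTPRC, CD3D, CD3E and MS4A1 are not listed in the table. The libraries with replicate number 2 stood apart within every group in some mesenchymal genes but not in others. VIM, an intermediate filament of mesenchymal cells, measured 3.19, 10.9 and 2.84 FPKM in control replicates 1 to 3. It measured 2.4, 9.7 and 2.48 FPKM in siMENA and 3.16, 12.7 and 2.6 FPKM in siMENA11a. MMP2, AXL and TWIST1 were likewise highest in replicate 2 of every group. FN1 was highest in replicate 3 of control (20.9, 21.9 and 23.5 FPKM) and of siMENA (26.8, 29.3 and 31.5 FPKM), but in replicate 2 of siMENA11a. S100A4 was lowest in control replicate 2 (15.7, 12.1 and 13.2 FPKM).

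In siMENA against control 2463 genes were called, 18.6% of those tested. Of these, 1369 (10.3%) were higher and 1094 (8.24%) were lower in siMENA. Changes were mostly small: 285 called genes moved at least 1.5-fold, 96 up and 189 down, and 38 moved at least 2-fold, 15 up and 23 down. The median change over all genes tested was 0.04. With the replicate number as a block 3149 genes were called, and counts under that block are given below where they differ by more than 1.5 times. The calls of 1130 genes (8.51%), 525 higher and 605 lower, held whichever of the 6 libraries was left out. In the text these are called stable, and genes are named from them unless stated. The groups did not overlap in 5323 genes (40.1%), and in each of the stable genes whose 6 values are given below they did not overlap either. For the largest rises and falls and the most abundant genes, this was a condition of being chosen. Scaling moved the balance of directions, with 44.4% of calls lower as deposited and 56.2% lower after median-ratio scaling.

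**Figure D1:**
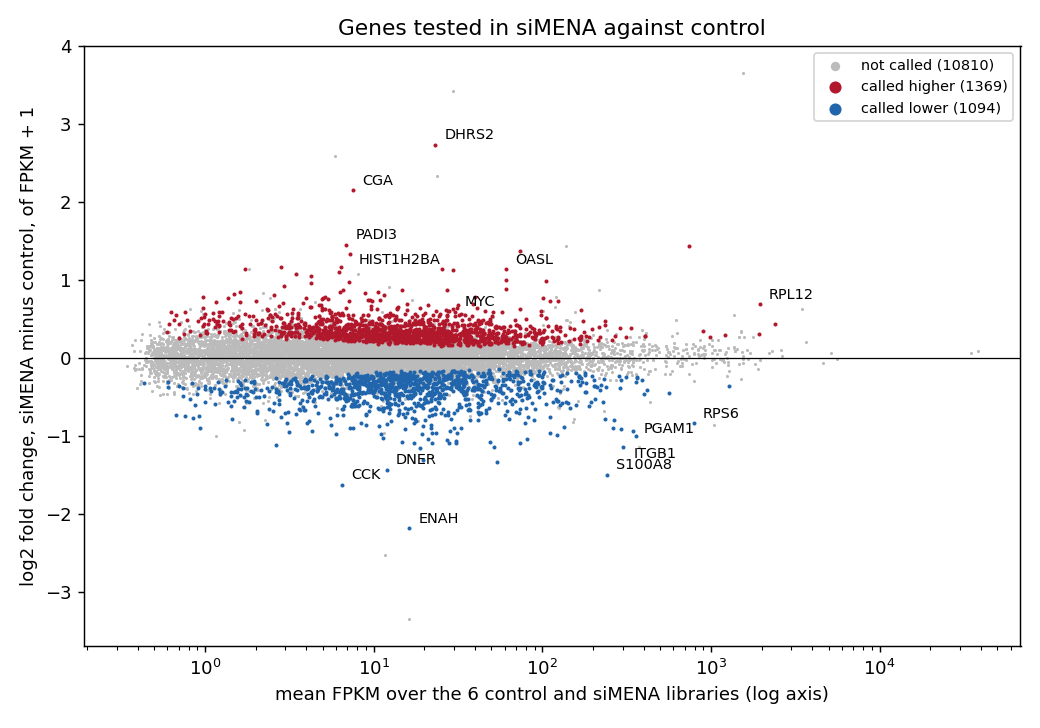
Each point is 1 of the 13273 genes tested, with its mean FPKM over the control and siMENA libraries on a log axis and its log2 change of FPKM + 1 (siMENA minus control) on the vertical axis. ENAH lies at -2.18, DHRS2 at 2.73 and CGA at 2.15, and most called genes lie within 1 unit of 0. Grey points are genes that were not called.

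ENAH itself was the most strongly reduced stable gene. Its level was 26.1, 30.04 and 26.1 FPKM in the control libraries and 4.43, 5.79 and 5.57 FPKM in the siMENA libraries, which left 19.2% of the control mean (-2.18 ± 0.09 SE, adjusted p = 6.41e-06). Every siMENA library lay below every control library, and also below the siMENA11a libraries, which held 9.98, 11.02 and 10.3 FPKM. The other Ena/VASP genes did not pass the test. VASP, the family's founding member, measured 86.02, 89.4 and 85.4 FPKM in control and 81.4, 82.4 and 89.7 FPKM in siMENA, and the ranges overlapped. EVL, the third member, was scarce, with 3.55, 3.87 and 3.78 FPKM in control and 5.03, 3.95 and 5.09 FPKM in siMENA (0.26, adjusted p = 0.118). The profilins PFN1 and PFN2, which deliver actin monomers, differed by 0.15 (adjusted p = 0.321) and -0.07 (adjusted p = 0.392). Of the 15 measured Ena/VASP proteins and partners, 2 fell and 1 rose (20% called, against 18.6% of all genes tested). The second fall was in LPP, a LIM protein of focal adhesions that binds VASP, from 7.86, 8.75 and 7.38 FPKM to 4.75, 5.11 and 6.07 FPKM (-0.51 ± 0.10 SE). TES, a LIM protein that binds hMENA, was called higher by 0.26 (adjusted p = 0.0382), a call that ended without any one library other than siMENA replicate 3 (adjusted p of 0.0736 to 0.125), under median-ratio scaling (0.0653) and with a prior without a trend (0.0545).

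The integrins, the receptors that bind matrix, moved in both directions. Of 14 measured subunits 3 were higher, 4 lower and 7 not called (50% called, against 18.6% of all genes tested). ITGB1, the beta subunit shared by most matrix receptors, was the most abundant of them, at 393, 445 and 399.6 FPKM in control. It measured 172, 197 and 189.7 FPKM in siMENA, 45.1% of control (-1.14 ± 0.08 SE, adjusted p = 2.45e-05). All 3 siMENA libraries lay far below all 3 control libraries. ITGB8, which pairs with ITGAV to bind latent TGF-beta, fell from 67.2, 65.8 and 67.2 FPKM to 27.9, 30.1 and 35.7 FPKM (-1.08 ± 0.10 SE). Its partner ITGAV fell as well, from 72.9, 81.6 and 75.8 FPKM to 46.1, 48.6 and 48.1 FPKM (-0.68 ± 0.06 SE). ITGA6, the laminin-binding subunit of hemidesmosomes, fell by a smaller amount, -0.28 ± 0.05 SE, from 254, 249 and 263 FPKM to 212, 206 and 213 FPKM. The collagen-binding subunits ITGA1 and ITGA2, which both pair with the beta 1 subunit, rose. ITGA2 went from 28.6, 32.2 and 27.8 FPKM to 46.4, 52.6 and 45.4 FPKM (0.69 ± 0.09 SE) and ITGA1 from 16.05, 19.6 and 16.4 FPKM to 24.6, 26.5 and 23.04 FPKM (0.49 ± 0.08 SE). ITGA5, the fibronectin receptor subunit, was not called (0.59, adjusted p = 0.154), nor was ITGB4 (-0.41, adjusted p = 0.0702). With the replicate number as a block both passed (adjusted p of 0.00227 and 0.0375), and ITGB4 also passed without siMENA replicate 3 (-0.59, adjusted p = 0.00362).

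At focal adhesions, where integrins are anchored, 4 of 28 measured genes rose and 2 fell (21.4% called, against 18.6% of all genes tested). PTK2, the focal adhesion kinase, fell from 72.3, 69.4 and 76.3 FPKM to 44.4, 47.1 and 53.1 FPKM (-0.59 ± 0.07 SE). PDLIM5, a PDZ and LIM protein of actin bundles, fell by 0.43 on the log2 scale. FERMT1, the kindlin of epithelial cells that activates integrins, rose from 3.9, 4.67 and 4.3 FPKM to 7.22, 6.62 and 7.05 FPKM, and CRK, an adaptor downstream of the kinase, rose by 0.39. SDC4, a heparan sulfate co-receptor of integrins at these sites, was among the abundant genes that fell, from 342, 328 and 354 FPKM to 177, 188 and 180.3 FPKM (-0.90 ± 0.07 SE). Of 28 measured matrix genes 2 rose and 2 fell (14.3%, against 18.6% of all genes tested), with 1 higher and none lower when replicate 1 or 3 of control or replicate 1 or 2 of siMENA was left out. The stable one was COL5A2, a fibrillar collagen chain, which rose from 2.25, 2.43 and 2.97 FPKM to 6.97, 4.83 and 5.99 FPKM (0.96 ± 0.15 SE).

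**Figure D2:**
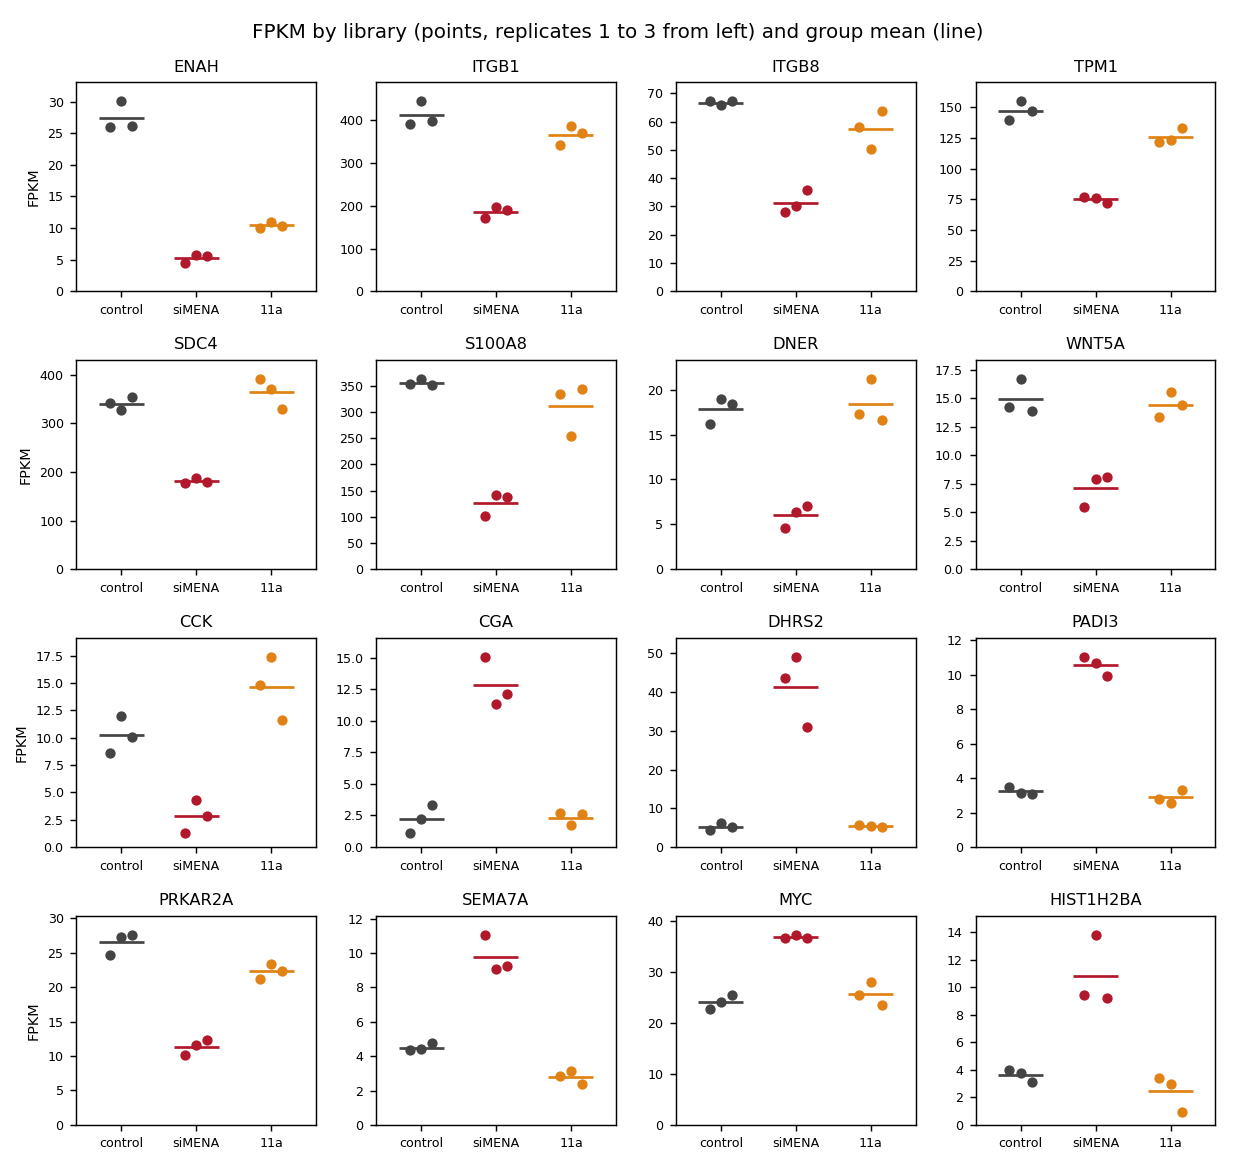
FPKM of 16 genes in each library (points; 3 libraries per group, with siMENA11a labelled 11a) and the group mean (horizontal line), on linear axes that start at 0. In every panel all siMENA points lie on one side of all control points. HIST1H2BA and SEMA7A are lower in siMENA11a than in siMENA, and ENAH, CCK, ITGB1 and S100A8 are higher.

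Among actin regulators the clearest changes were falls in TPM1 and in the cofilin group. TPM1, a tropomyosin that coats and stabilises actin filaments, fell from 139.6, 155 and 147 FPKM to 76.8, 76.2 and 72.1 FPKM, 50.9% of control (-0.96 ± 0.06 SE, adjusted p = 1.67e-05). Of the 26 measured actin, myosin and tropomyosin genes, 3 fell and 2 rose (19.2% called, against 18.6% of all genes tested). With TPM1 fell MYL12A, a regulatory light chain of non-muscle myosin, from 154, 163 and 158 FPKM to 106, 104 and 106 FPKM, and MYO5B, a motor of recycling vesicles, from 24.4, 22.99 and 24.98 FPKM to 15.3, 15.2 and 16.8 FPKM. MYO1C, a membrane-bound myosin, rose by 0.27. ACTB, beta actin itself, was not called (0.02, adjusted p = 0.917). TPM1 was also the single call among 19 targets of SRF and its actin-sensing MRTF coactivators (5.26% called). The count was 2 without control replicate 2 or siMENA replicate 2, and 3 under the block. Of the 21 measured genes of cofilin and its control, 5 fell and none rose (23.8% called), with 6 and 2 under the block. DSTN, or destrin, which severs actin filaments like cofilin, fell from 254, 287 and 286 FPKM to 180.4, 189 and 187 FPKM (-0.57 ± 0.06 SE). CAP2, which works with cofilin in recycling actin, fell by 0.54 on the log2 scale, the cofilin phosphatase SSH2 by 0.44 and LIMK2, a kinase that switches cofilin off, by 0.32. In the Arp2/3 and WAVE list, which covers the branching machinery of actin, 3 of 18 genes rose and 3 fell (33.3% called). The falls were stable: ARPC1A by 0.38, ARPC5 by 0.22 and CTTN, or cortactin, by 0.29. The 3 rises were all lost without control replicate 1. TWF1, which caps filament ends and binds monomers, fell by 0.31.

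Of 10 epithelial markers 2 fell and 8 were not called (20% called, against 18.6% of all genes tested). KRT7, a keratin of simple epithelium, fell from 451, 497 and 487 FPKM to 359.7, 363 and 354 FPKM (-0.41 ± 0.08 SE). The more abundant keratins KRT8, KRT18 and KRT19 differed by -0.01, -0.09 and -0.00 and were not called (adjusted p of 0.932, 0.501 and 0.998). KRT17, a keratin of basal and wounded epithelium, rose from 0.454, 0.923 and 0.64 FPKM to 2.3, 4.15 and 1.88 FPKM (1.14 ± 0.24 SE). The levels are low, and replicate 2 is the highest in both groups. ESRP1, the splicing factor that directs epithelial exon choice, including that of ENAH exon 11a, fell from 43.3, 45.3 and 47.2 FPKM to 32.3, 31.97 and 36.7 FPKM, 74.4% of control (adjusted p = 0.00191). Its paralog ESRP2 was not called (0.13, adjusted p = 0.457). MBNL2, another splicing regulator, fell by 0.52. Of the 16 measured regulators and markers of epithelial-mesenchymal transition, 2 rose and 1, ESRP1, fell (18.8% called). S100A4, a calcium-binding protein of motile cells, rose from 15.7, 12.1 and 13.2 FPKM to 19.6, 21.6 and 18.6 FPKM (0.52 ± 0.11 SE). VIM was not called (-0.20, adjusted p = 0.854). Of 20 tight junction genes 4 rose and none fell (20% called). The stable one was CGN, or cingulin, which ties junctions to actomyosin, from 13.9, 15.05 and 14.3 FPKM to 23.99, 22.98 and 22.3 FPKM (0.64 ± 0.06 SE). The count was 1 without control replicate 1, control replicate 2 or siMENA replicate 1, and 2 without siMENA replicate 3. Of 22 genes of adherens junctions and desmosomes 3 rose and 4 fell (31.8% called). With replicate 1 or 3 of control or replicate 1 or 2 of siMENA left out, 1 rose and 2 fell. DSG3, a desmosomal cadherin, fell from 37.9, 41.9 and 38.2 FPKM to 23.99, 26.2 and 24.7 FPKM and PERP, a desmosome component, by 0.44, while the nectin PVRL2 rose from 24.4, 27.6 and 27.4 FPKM to 34.6, 37.3 and 37.1 FPKM. PARD6A, a scaffold of the polarity complex, was among the 15 largest rises, from 2.14, 2.24 and 2.89 FPKM to 7.59, 4.65 and 6.2 FPKM (1.05 ± 0.18 SE). SFTPD, the surfactant protein D of the distal lung, fell from 3.46, 3.37 and 3.68 FPKM to 1.53, 2.29 and 2.18 FPKM.

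DHRS2, PADI3, PODXL2 and IGSF23 were also among the 15 largest rises. DHRS2, a short-chain dehydrogenase of carbonyl compounds, rose from 4.43, 6.2 and 5.23 FPKM to 43.7, 49.1 and 30.9 FPKM (2.73 ± 0.15 SE, adjusted p = 9.73e-06). The lowest siMENA library was several times above the highest control library, and the siMENA11a libraries held 5.57, 5.52 and 5.07 FPKM. Of the 26 measured genes of this and related enzyme families 4 rose and 4 fell (30.8% called, against 18.6% of all genes tested). Without control replicate 3 the numbers were 2 and 3. The falls included RDH11 (-0.67) and ALDH9A1 (-0.66). The retinol dehydrogenase RDH10 rose by 0.54. PADI3, which converts arginine in proteins to citrulline, rose from 3.46, 3.14 and 3.08 FPKM to 11.02, 10.7 and 9.93 FPKM (1.45 ± 0.09 SE). PODXL2, a sialomucin, rose from 3.27, 3.7 and 3.72 FPKM to 9.73, 9.17 and 8.7 FPKM, and IGSF23, an immunoglobulin-domain protein, from 1.71, 2.15 and 1.29 FPKM to 3.9, 4.94 and 3.58 FPKM.

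Of 15 measured hormone and neuroendocrine genes 2 rose and 1 fell (2 and 3 under the block). This is 20% called, against 18.6% of all genes tested. The stable changes were in 2 hormones that went in opposite directions. CGA, the alpha chain common to gonadotropins and thyrotropin, rose from 1.14, 2.21 and 3.3 FPKM to 15.1, 11.4 and 12.1 FPKM (2.15 ± 0.23 SE, adjusted p = 0.000295). CCK, which encodes cholecystokinin, fell from 8.61, 11.96 and 10.1 FPKM to 1.3, 4.31 and 2.81 FPKM, 27.5% of control (-1.63 ± 0.26 SE). The CGA promoter is a classical target of cyclic AMP, whose main effector is protein kinase A. The 2 falls in its list were in regulatory subunits, which hold the catalytic subunits inactive. PRKAR2A fell from 24.7, 27.4 and 27.6 FPKM to 10.1, 11.5 and 12.3 FPKM, 42.7% of control (-1.16 ± 0.08 SE, adjusted p = 2.45e-05), and PRKAR1A from 179, 176 and 177 FPKM to 111, 113 and 115 FPKM (-0.64 ± 0.05 SE). Both sets of 3 libraries were tight and far apart. Of the 21 measured genes of protein kinase A and cyclic AMP 3 rose and 2 fell (23.8% called). ADCY9, an adenylate cyclase, was the stable rise (0.33). Without any one library other than siMENA replicate 2 a single rise was left. The CGA promoter is shown because it carries the cyclic AMP response element TGACGTCA (in capitals) in 2 copies. That palindrome, which reads the same on both strands, is in 1.85% of all 35116 promoter windows of the same length. Of the 10254 tested genes that could be matched, 3.8% hold it in any of their windows, which is a different measure. The window runs from 250 bases before to 50 bases after the start (RefSeq, GRCh38.p14, chr6:87095057-87095356, minus strand, written 5' to 3' along the gene).
CGA promoter: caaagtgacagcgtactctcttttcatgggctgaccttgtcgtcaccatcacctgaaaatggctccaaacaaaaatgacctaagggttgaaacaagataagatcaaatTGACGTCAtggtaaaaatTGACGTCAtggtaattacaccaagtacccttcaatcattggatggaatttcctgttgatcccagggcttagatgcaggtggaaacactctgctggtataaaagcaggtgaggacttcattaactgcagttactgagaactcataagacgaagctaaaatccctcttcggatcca
Whether the element or the 2 falls in regulatory subunits bear on the rise of CGA was not tested, and kinase activity was not measured.

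Signalling lists held a small number of changed genes each. Of 19 measured feedback and target genes of the MAPK pathway 7 rose and none fell (36.8% called, against 18.6% of all genes tested). Their median change was 0.21, against 0.04 over all genes. MYC, the growth-promoting transcription factor, rose from 22.8, 24.04 and 25.5 FPKM to 36.6, 37.2 and 36.7 FPKM (0.59 ± 0.07 SE, adjusted p = 0.000522), and PHLDA1 rose by 0.35. ETV5, an ETS factor that MAPK signalling induces, went from 3.91, 5.28 and 3.57 FPKM to 7.45, 9.55 and 8.03 FPKM (0.84 ± 0.19 SE), a call that ended without control replicate 3 or siMENA replicate 2 (adjusted p of 0.0544 and 0.05004). The count of rises was 2 without control replicate 3, 4 without siMENA replicate 1, and 3 without siMENA replicate 2 or 3. DUSP6, the phosphatase most specific to ERK, was not called (0.21, adjusted p = 0.143), except without control replicate 1 (0.30, adjusted p = 0.0496). In the same receptor system ERRFI1, an inhibitor of EGFR, fell from 106, 103 and 112 FPKM to 76.7, 76.7 and 82.05 FPKM (-0.44 ± 0.06 SE), and FGFR1 rose by 0.35.

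Of 18 Notch pathway genes 4 fell and none rose (22.2% called, against 18.6% of all genes tested). Without control replicate 2 or 3 the count was 2 falls. DNER, a transmembrane Notch ligand, fell from 16.2, 18.9 and 18.4 FPKM to 4.63, 6.4 and 7.05 FPKM, 33.8% of control (-1.44 ± 0.13 SE), and NUMB, which restrains Notch, fell by 0.51. Of 31 WNT genes the 1 fall was that of WNT5A, a non-canonical ligand of cell movement, from 14.3, 16.7 and 13.9 FPKM to 5.49, 7.93 and 8.09 FPKM (-0.98 ± 0.13 SE), while 3 rose. In all, 12.9% of the WNT genes were called. Their count was 1 without control replicate 1 or siMENA replicate 2, and 2 without control replicate 3. Of 34 TGF-beta and BMP genes 6 fell and none rose (17.6% called), with 8 and 2 under the block. The count was 3 falls without control replicate 3 or siMENA replicate 1. The stable falls were in INHBB, an activin chain, from 1.54, 0.871 and 1.24 FPKM to 0.35, 0.267 and 0.325 FPKM, in TGFB2, a TGF-beta ligand, by 0.46 and in SMAD5, a transducer of BMP signals, by 0.34. WWTR1, which encodes the coactivator TAZ, fell from 25.3, 25.4 and 25.8 FPKM to 17.4, 18.4 and 22.01 FPKM. Of 31 semaphorin, netrin and ephrin genes, which guide migrating cells, 5 rose and none fell (16.1% called). The count was 3 rises without control replicate 3 or siMENA replicate 1 or 2. The stable members of that list were SEMA4D (0.47), SEMA3A (0.44) and SEMA4C (0.32). SEMA7A, a lipid-anchored semaphorin, was among the 15 largest rises, from 4.33, 4.39 and 4.76 FPKM to 11.1, 9.07 and 9.24 FPKM (0.97 ± 0.10 SE).

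Interferon-induced genes gave the highest count of rises of the gene lists examined. Interferons signal through JAK kinases to a transcription factor complex that includes IRF9, which binds a response element in the promoters of antiviral genes. Cytosolic RNA sensors such as IFIH1 and DDX58 (RIG-I) start this pathway. Of 39 measured interferon-induced effectors 18 rose, 1 fell and 20 were not called, with a median change of 0.41 against 0.04 over all genes tested. For comparison, 10.3% of all genes were called higher. HERC5, the ligase for the ubiquitin-like protein ISG15, measured 12.97, 19.1 and 14.1 FPKM in control and 31.3, 49.2 and 26.997 FPKM in siMENA (1.14 ± 0.25 SE, adjusted p = 0.0127). OASL, a relative of the oligoadenylate synthetases, measured 32.6, 48.5 and 32.1 FPKM and 76.1, 114 and 65.3 FPKM (1.14 ± 0.23 SE). IFIT1, which binds foreign RNA, measured 38.2, 46.7 and 34.7 FPKM and 74.6, 105 and 64.8 FPKM (1.00 ± 0.20 SE). In all 3 genes replicate 2 was highest in both groups, and the groups did not overlap. Between libraries of the same number, siMENA exceeded control 2.41, 2.58 and 1.91 times for HERC5, 2.34, 2.35 and 2.03 times for OASL and 1.96, 2.25 and 1.87 times for IFIT1. Genes with less spread rose too: IFI35 from 19.2, 18.9 and 18.9 FPKM to 37.6, 34.9 and 34.01 FPKM (0.87 ± 0.10 SE) and OAS1, a synthetase of the RNase L activator, from 7.12, 8.03 and 6.6 FPKM to 12.2, 15.4 and 14.1 FPKM (0.85 ± 0.09 SE). OAS2 rose by 0.87.

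The mean level of the effector list relative to the control mean was 0.36, 0.60 and 0.27 (log2) in siMENA replicates 1 to 3 and -0.04, 0.11 and -0.06 in control replicates 1 to 3. All siMENA libraries were above all control libraries, with replicate 2 highest in each group. Fibroblast markers differed in this respect. COL3A1, a fibroblast collagen, was likewise highest in replicate 2, at 0.24, 2.24 and 0.28 FPKM in control and 0.27, 3.22 and 0.38 FPKM in siMENA. FAP was also highest there in both groups. COL1A1 was not, at 0.341, 0.306 and 0.364 FPKM in control and 0.494, 0.506 and 0.668 FPKM in siMENA. The part of the replicate 2 difference in the interferon result was not tested. The count of rises was 10 without siMENA replicate 2, 11 without control replicate 1 or 3, and 12 without siMENA replicate 1, and 10 rises were stable.

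Among 25 measured RNA sensors and interferon signalling genes 12 rose and 2 fell (56% called, against 18.6% of all genes tested). Without siMENA replicate 2 the numbers were 7 and 2. IFIH1, or MDA5, rose from 9.25, 11.9 and 9.52 FPKM to 17.98, 22.1 and 18.2 FPKM (0.87 ± 0.13 SE) and DDX58 from 19.8, 23.9 and 19.2 FPKM to 30.6, 38.9 and 29.1 FPKM (0.62 ± 0.12 SE). IRF9, a signal carrier of the pathway, rose from 15.1, 14.5 and 15.7 FPKM to 21.3, 20.1 and 21.01 FPKM. MAVS, the mitochondrial adaptor through which both sensors act, went the other way, from 16.3, 15.8 and 17.1 FPKM to 10.7, 11.6 and 11.9 FPKM (-0.49 ± 0.06 SE). SOCS3, a feedback inhibitor of JAK kinases, also fell, from 12.04, 13.2 and 10.4 FPKM to 6.22, 7.95 and 6.93 FPKM (-0.68 ± 0.11 SE).

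**Figure D3:**
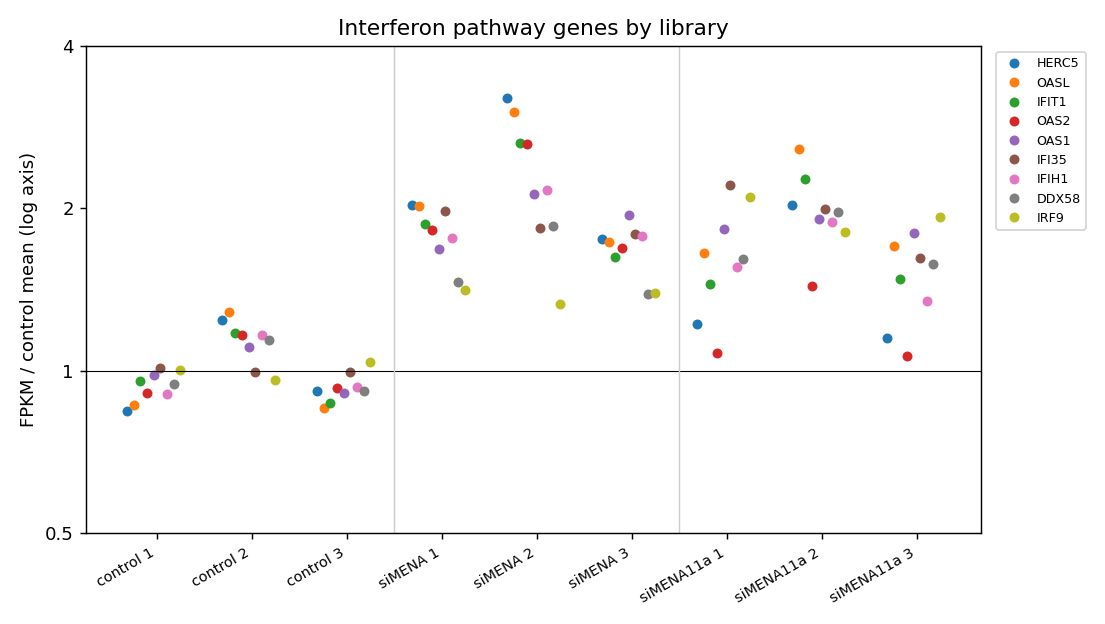
FPKM of 9 genes of the interferon pathway in each library, divided by the gene's control mean, on a log axis with points offset for visibility. All siMENA points lie above 1, among them HERC5 and OASL reach the highest ratios, in replicate 2, and IRF9 is higher in siMENA11a than in siMENA.

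The promoters of 3 of the genes that rose are shown because they carry the element that the interferon pathway acts on. Capitals mark the interferon response element, searched as GAAA, 2 bases of any kind and GAAA again, on both strands and with overlapping copies counted. Counted in any window of a gene, it occurs in 24 of 32 effectors that could be matched and in 10 of 14 of those called higher. Counted in the same way it occurs in 3.67% of tested genes. It is in 3.57% of all 35116 single windows. In the list of RNA sensors and interferon signalling, to which IFIH1 belongs, it occurs in 5 of 18 genes and in 3 of 9 of those called higher. The windows cover 250 bases before to 50 bases after the start (RefSeq, GRCh38.p14) at chr10:89392373-89392672 (plus strand), chr4:88456869-88457168 (plus strand) and chr2:162318635-162318934 (minus strand).
IFIT1 promoter: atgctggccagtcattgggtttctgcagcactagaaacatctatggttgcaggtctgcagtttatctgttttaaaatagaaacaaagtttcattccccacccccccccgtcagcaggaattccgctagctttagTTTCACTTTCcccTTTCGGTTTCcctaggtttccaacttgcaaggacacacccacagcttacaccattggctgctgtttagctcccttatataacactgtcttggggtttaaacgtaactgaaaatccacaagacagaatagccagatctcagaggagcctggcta
HERC5 promoter: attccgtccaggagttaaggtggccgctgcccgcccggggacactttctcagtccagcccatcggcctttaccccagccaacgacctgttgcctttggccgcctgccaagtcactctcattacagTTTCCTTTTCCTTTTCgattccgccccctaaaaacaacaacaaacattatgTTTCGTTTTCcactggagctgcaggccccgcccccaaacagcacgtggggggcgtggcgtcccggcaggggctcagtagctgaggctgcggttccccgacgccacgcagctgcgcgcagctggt
IFIH1 promoter: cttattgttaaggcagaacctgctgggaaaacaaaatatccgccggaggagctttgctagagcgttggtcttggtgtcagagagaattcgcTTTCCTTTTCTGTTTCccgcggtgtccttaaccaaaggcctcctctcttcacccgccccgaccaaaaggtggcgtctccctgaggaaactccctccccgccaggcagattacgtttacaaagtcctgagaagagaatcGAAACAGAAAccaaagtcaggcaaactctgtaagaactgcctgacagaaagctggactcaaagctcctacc
IFIT1 holds 2 copies, and HERC5 and IFIH1 hold 3 each. A match is a run of letters and was not tested for binding.

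The lymphotoxin receptor and the non-canonical NF-kB pathway had no call in limma among 11 measured genes, with 2 at an unadjusted p under 0.05. LTBR, the receptor, measured 52.99, 53.8 and 51.3 FPKM in control and 49.1, 52.8 and 54.2 FPKM in siMENA, with overlapping ranges (-0.02, adjusted p = 0.853). NFKB2 and RELB, the transcription factor pair of this pathway, differed by 0.17 (adjusted p = 0.181) and 0.35 (adjusted p = 0.0712). With the replicate number as a block RELB passed (adjusted p of 0.0356), the 1 call of this list in that fit, and it also passed in a fit of the 6 control and siMENA libraries alone (0.0355). Of 19 canonical NF-kB genes and targets 4 rose and none fell (21.1% called, against 18.6% of all genes tested). NFKB1 rose from 8.47, 8.54 and 8.71 FPKM to 10.9, 11.1 and 12.1 FPKM, the cytokine IL6 from 22.2, 25.7 and 29.9 FPKM to 38.2, 40.98 and 35.7 FPKM (0.55 ± 0.11 SE) and the transcription factor IRF1 from 23.1, 20.5 and 22.2 FPKM to 30.5, 26.8 and 27.5 FPKM. CCL5, a chemokine for T cells, was the 1 chemokine called of 10 (10%), from 66.7, 83.2 and 57.4 FPKM to 118, 204 and 105 FPKM (0.99 ± 0.25 SE, adjusted p = 0.024). Its call ended on leaving out replicate 1 or 3 of control or replicate 2 of siMENA (adjusted p of 0.059 to 0.087), and it too was highest in replicate 2. The number of chemokines called was 2 without control replicate 2 or siMENA replicate 3, and also under the block. Of 16 measured MHC class I genes 2 rose and 1 fell (18.8% called), with 5 and 1 under the block. CANX, the chaperone calnexin, fell from 153, 152 and 159.7 FPKM to 102, 101 and 101 FPKM (-0.61 ± 0.05 SE), and PSME2, a proteasome activator subunit, rose by 0.35. B2M, the invariant chain of class I molecules, was not called (-0.07, adjusted p = 0.704). Of 14 immune checkpoint ligands 5 rose and 1 fell (42.9% called). Without control replicate 1 or siMENA replicate 1 or 2, 3 rose and none fell. Stable rises were PDCD1LG2 (PD-L2) from 0.683, 0.55 and 0.614 FPKM to 1.76, 1.43 and 1.009 FPKM, PVRL2, and BTN3A1 by 0.36. CD274 (PD-L1) measured 1.11, 1.03 and 0.987 FPKM and 0.896, 1.47 and 0.721 FPKM and was not called (adjusted p = 0.9).

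The secreted defence genes of epithelium split, with 5 of 15 higher and 3 lower (53.3% called, against 18.6% of all genes tested). S100A8, a subunit of calprotectin, fell from 353, 363 and 352 FPKM to 101, 141 and 137 FPKM, 35.6% of control (-1.50 ± 0.14 SE, adjusted p = 0.000149). Its partner subunit S100A9 measured 1070.3, 1141 and 984 FPKM and 1077, 1129 and 1103 FPKM, with overlapping ranges (0.05, adjusted p = 0.763). The antimicrobial peptides DEFB1 and CAMP rose, DEFB1 from 3.66, 2.35 and 4.997 FPKM to 9.92, 7.34 and 9.05 FPKM and CAMP from 2.65, 4.42 and 3.25 FPKM to 5.3, 6.82 and 7.18 FPKM. The elastase inhibitor PI3 rose from 139, 117 and 141 FPKM to 257, 169 and 191 FPKM, with siMENA replicate 1 the highest. CD59, which protects cells from complement, fell by 0.39. S100A2 was called higher by 1.13, but its groups overlapped, and the call ended on leaving out any one library other than control replicate 2 and siMENA replicate 3 (adjusted p of 0.0954 to 0.109). CLCA2, a calcium-regulated chloride channel modulator, fell from 108, 93.8 and 102 FPKM to 38.8, 49.2 and 53.1 FPKM (-1.10 ± 0.12 SE).

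Metal handling changed in both directions. FAM96A, a factor of cytosolic iron-sulfur assembly, fell from 73.5, 70.1 and 70.2 FPKM to 28.7, 31.8 and 34.8 FPKM (-1.15 ± 0.08 SE, adjusted p = 2.45e-05), and TFRC, the transferrin receptor, from 218, 249 and 229.7 FPKM to 156, 158 and 154 FPKM (-0.57 ± 0.06 SE). The iron importer SLC11A2 rose by 0.49, ACO1, whose protein doubles as an iron-sensing RNA-binding factor, by 0.33 and the cysteine desulfurase NFS1 by 0.31. In all, 5 of 27 iron and iron-sulfur genes rose and 3 fell (29.6% called, against 18.6% of all genes tested). Without siMENA replicate 1 the numbers were 3 and 2. Of 14 metallothionein and zinc genes 4 fell and 2 rose (42.9% called). MT1E fell from 33.8, 26.3 and 25.7 FPKM to 9.58, 13.2 and 9.86 FPKM, and MT2A from 704, 567 and 686 FPKM to 469.6, 464 and 492 FPKM. Metallothionein genes are near-identical and the way reads were shared between them is not given, so their separate values are uncertain. MTF1, the zinc-sensing activator of these genes, fell by 0.40. The zinc importers SLC39A10 and SLC39A1 rose by 0.49 and 0.32.

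Of 32 glycolysis and hypoxia genes 6 fell and none rose (18.8% called, against 18.6% of all genes tested). SLC2A3, a glucose transporter, fell from 50.3, 29.98 and 45.6 FPKM to 21.9, 16.6 and 23.6 FPKM (-0.97 ± 0.20 SE), PGAM1, a glycolytic mutase, from 427, 492 and 446 FPKM to 226, 245 and 238 FPKM (-0.94 ± 0.07 SE) and BNIP3L, a mitophagy receptor, by 0.63. VEGFA, the angiogenic factor that hypoxia induces, fell from 27.4, 22.5 and 27.5 FPKM to 17.4, 17.5 and 20.7 FPKM. Of all 285 called genes that moved at least 1.5-fold, 189 fell. Among the most abundant stable genes of that size, 9 of 10 fell. They include RPS6, a protein of the small ribosomal subunit, from 1109.9, 916 and 1027 FPKM to 559, 548 and 590.4 FPKM (-0.84 ± 0.10 SE), TOMM7, a part of the mitochondrial import pore, by 0.91, GPX1, the main glutathione peroxidase, by 0.79, the nuclear transport GTPase RAN by 0.79 and MAL2, a protein of apical transport, by 0.62. RPL12, of the large ribosomal subunit, rose from 1543, 1409.7 and 1529 FPKM to 2654, 2211 and 2386 FPKM (0.69 ± 0.10 SE). RPS6, RPL12, PGAM1 and RAN have processed pseudogenes, and how the authors assigned their reads is not given. The cytosolic ribosome list as a whole held 4 rises and 2 falls among 53 genes (11.3% called). Its count was 1 without control replicate 3, 2 without siMENA replicate 1, and 3 without control replicate 1 or 2 or siMENA replicate 2. Of 23 endoplasmic reticulum chaperones and stress genes 5 fell and 1 rose (26.1% called). With CANX fell the chaperone HSP90B1 (-0.39), SEL1L, a part of the degradation complex (-0.32), and the co-chaperone DNAJB11 (-0.29), while HYOU1 rose by 0.33.

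In the list of the mitochondrial ribosome changes were small, with a median change of 0.16. Of 44 genes 12 were higher and 1 lower (29.5% called, against 18.6% of all genes tested). MRPS31 rose by 0.40, MRPS9 by 0.34, MRPL44 by 0.34 and MRPL39 by 0.29, while MRPL19 fell by 0.25. The number of rises was 5 without control replicate 3 or siMENA replicate 1, 6 without siMENA replicate 2 and 7 without control replicate 1. In the list of DNA replication and the G1/S transition, 5 of 42 fell and 2 rose (16.7% called, against 18.6% of all genes; 8 and 5 under the block), among them the stable fall of MCM3 (-0.36) and the rise of UNG (0.31). The numbers were 2 lower and 2 higher without control replicate 2, and 2 lower and 1 higher without siMENA replicate 1. In that of mitosis and the G2/M transition, 3 of 39 fell and none rose (7.69% called), with 11 and none under the block. A single fall was left on leaving out replicate 2 or 3 of control or replicate 1 or 3 of siMENA. That gene was TOP2A, the DNA topoisomerase of dividing cells, from 81.6, 99.7 and 92.3 FPKM to 53.02, 58.2 and 54.2 FPKM (-0.71 ± 0.09 SE). None of the 52 replication-dependent histone genes of the list was called in limma, and 4 had an unadjusted p under 0.05. HIST3H2BB, an H2B gene outside that list, was called higher by 0.73 (adjusted p = 0.0198), a call that was not stable.

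A pair of testis-type histone genes of the HIST1 cluster also rose. HIST1H2BA went from 3.98, 3.78 and 3.11 FPKM to 9.45, 13.8 and 9.19 FPKM (1.34 ± 0.27 SE, adjusted p = 0.00839) and HIST1H2AA from 1.49, 2.77 and 1.51 FPKM to 5.12, 5.66 and 4.36 FPKM (1.07 ± 0.18 SE, adjusted p = 0.0035). Histone genes resemble each other closely, so reads could be shared with other copies. The pair is head to head: their starts lie 215 bases apart on opposite strands, and the 300-base promoter windows share 286 bases. The shared promoter is shown for that reason, from the HIST1H2AA side (H2AC1 in RefSeq, GRCh38.p14, chr6:25726513-25726812, minus strand), with CCAAT boxes on either strand in capitals, of which it holds 3.
HIST1H2AA promoter: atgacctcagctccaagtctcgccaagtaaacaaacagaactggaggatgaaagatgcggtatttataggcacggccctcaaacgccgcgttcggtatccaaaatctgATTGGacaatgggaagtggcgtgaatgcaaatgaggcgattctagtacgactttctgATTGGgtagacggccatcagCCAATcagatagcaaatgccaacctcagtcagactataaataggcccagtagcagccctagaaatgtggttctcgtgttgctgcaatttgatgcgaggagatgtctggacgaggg
The box CCAAT occurs in 34.6% of all single windows, and 43.3% of tested genes hold it in any of their windows.

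**Figure D4:**
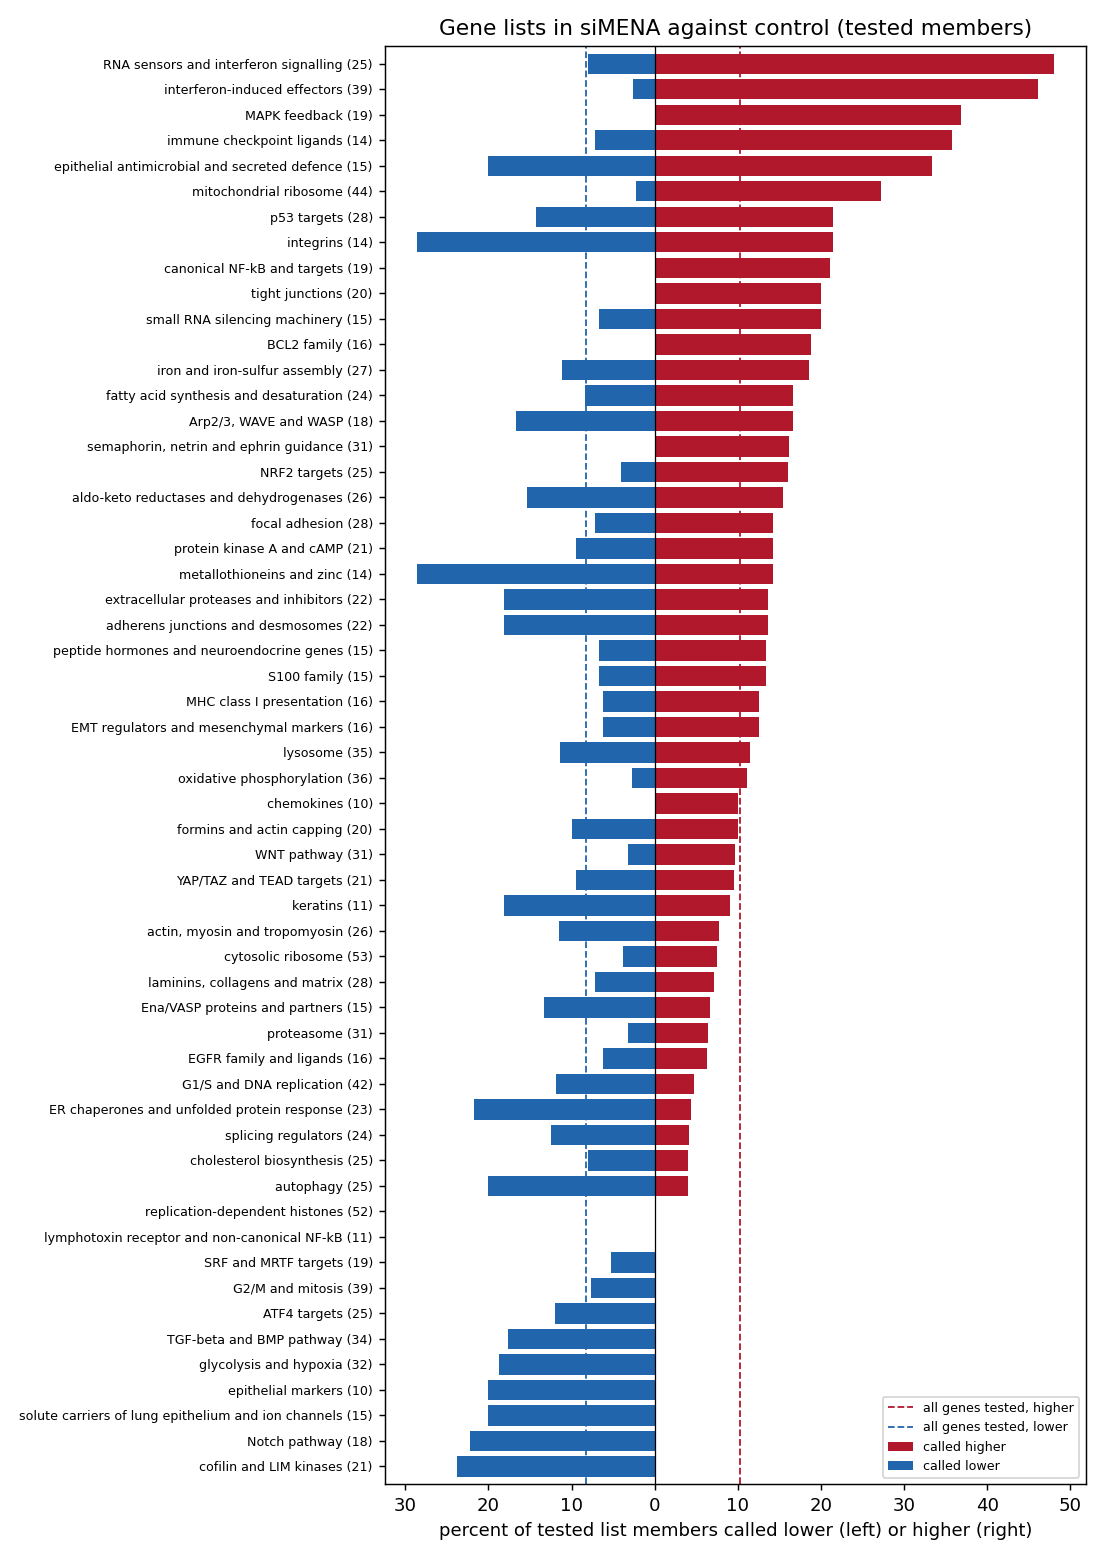
For the gene lists reported with at least 10 tested members (number in brackets), the percent of members called higher (to the right) and lower (to the left) in siMENA against control. Dashed lines mark the percent over all genes tested, 10.3% higher and 8.24% lower. RNA sensors and interferon effectors extend farthest to the right, and the integrins extend to both sides.

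The siMENA and siMENA11a groups were compared directly to see which values separate the pools, since both were measured against the same control libraries. Against control, siMENA11a gave 2583 calls (19.5%), and between the pools 4857 genes (36.6%) were called. The pools shared the direction of 442 calls and moved 271 genes in opposite directions, and all 271 were also called between the pools. S100A2 had the largest such difference, 2.13 between the pools, with 6.57, 10.9 and 7.69 FPKM in siMENA11a, although its rise in siMENA was not stable. KCNK15, a potassium channel, came next, with 9.26, 8.64 and 8.12 FPKM in control, 5.74, 5.94 and 5.63 FPKM in siMENA and 22.3, 25.99 and 22.6 FPKM in siMENA11a. Both pools' values lay clear of the control libraries in KCNK15, on opposite sides. COL5A2 stood at 1.6, 0.941 and 1.57 FPKM, SEMA7A at 2.85, 3.16 and 2.39 FPKM and HIST1H2AA at 1.04, 0.689 and 0.442 FPKM in siMENA11a, each below control where siMENA was above it. The other 3 of the 8 largest were not stable in siMENA against control. HIST3H2BB, an H2B histone gene, measured 63.6, 95.9 and 93.4 FPKM in control, 148, 147 and 121 FPKM in siMENA and 46.5, 51.9 and 34.05 FPKM in siMENA11a, and its call in siMENA ended without control replicate 1 or siMENA replicate 1 or 2 (adjusted p of 0.058 to 0.0733). SDCBP2, or syntenin-2, measured 2.35, 3.22 and 2.82, then 1.77, 1.83 and 1.5, then 6.79, 8.18 and 6.29 FPKM in the same order, and its call ended without control replicate 2 or 3 (adjusted p of 0.0504 and 0.0521). EFTUD2, a GTPase of the spliceosome, rose by 0.24 in siMENA, a call that ended without any one library other than control replicate 2 (adjusted p of 0.0651 to 0.107) and under median-ratio scaling (0.0541), and fell to 13.5, 11.6 and 12.9 FPKM in siMENA11a from 30.7, 34.5 and 32.9 FPKM in control. FEZ2 and FAM96A fell by 1.09 and 1.15 in siMENA and rose by 0.36 and 0.30 in siMENA11a. ITFG3 was low in both, at 12.4, 12.7 and 16.6 FPKM in siMENA and 11.8, 9.62 and 10.4 FPKM in siMENA11a against 29.04, 30.6 and 31.96 FPKM in control. Of the 15 largest rises, 5 were not called between the pools: PODXL2 differed by 0.09 (adjusted p = 0.466), OASL by 0.18 (0.592), IFIT1 by 0.24 (0.387), DEFB1 by 0.36 (0.169) and HERC5 by 0.64 (0.0696). ITGB1 differed between the pools by -0.98 (adjusted p = 2.65e-05), TPM1 by -0.74 (adjusted p = 2.65e-05) and S100A8 by -1.29 (adjusted p = 0.000111), each lower in siMENA. In the interferon effectors siMENA11a had 20 rises and no fall of 39, with a median of 0.48, beside 18 and 1 with a median of 0.41 in siMENA, and 11 members were called between the pools.

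Many transcripts that fell share letters in the 3' UTR. The words searched were CAGAATA and AGAATAA, on the transcript strand only, in any 3' UTR of a gene annotated in GENCODE v29 (GRCh38), and overlapping matches of the pair counted as 1 site. They overlap by all but 1 letter, and CAGAATAA contains both. The last letters of AGAATAA also begin the polyadenylation signal AATAAA. An earlier analysis of these same libraries picked the words for this comparison, so the shares describe the falls and are not a test. Of 12240 tested genes with an annotated 3' UTR 28.4% hold a word. The share was 54.4% among genes called lower, 67.4% among those lower by at least 1.5-fold, 17.1% among genes called higher and 25.9% among genes called lower in siMENA11a. The longer word CAGAATAA is in 6.67% of all genes and 22.4% of those called lower. The sites in 8 of the named falls are shown because the shared letters are the pattern. The word is in capitals, and each line is 24 bases of the transcript strand. In order, they lie at chr3:42258029-42258052, chr1:153390043-153390066, chr2:229358225-229358248, chr3:48749284-48749307, chr15:64072704-64072727 and chr2:36552677-36552700 (minus strand) and chr16:266058-266081 and chr10:122435858-122435881 (plus strand).
CCK: agaggaggCAGAATAAgaaaacaa
S100A8: tgtacctgCAGAATAAtaaagtca
DNER: ggttgttaCAGAATAAgtctaatc
PRKAR2A: gtatatttCAGAATAAtttttttt
FAM96A: tgatcagaCAGAATAAtattttct
FEZ2: gattgaaaCAGAATAAacgggctg
ITFG3: gaagaaagCAGAATAAacattttt
PLEKHA1: agcctgggCAGAATAAtgagacac
Of the 15 largest falls 12 hold a word, including ENAH, VTA1, an endosomal sorting factor, and ITGB8. Of the 13 largest rises with an annotated 3' UTR 3 do, IFIT1, SEMA7A and COL5A2.

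The share called lower grew with the number of sites. Without a site, 5.44% of 8763 genes were called lower and 12.6% higher. With 1 site 13.7% were lower and 7.01% higher, with 2 sites 22.3% and 5.49%, and with 3 or more 22.8% and 5.63%. In siMENA11a the share called lower did not rise with these sites, at 12.3%, 11.4%, 10.5% and 7.24%. Because the words were picked for siMENA against control in these libraries, neither the growth with sites nor this difference between the pools is a test. Genes with more sites have longer 3' UTRs, with medians of 975 bases without a site and 5941 bases with 3 or more. By class of 3' UTR length, 20.1% of genes with a word and 4.51% of those without were called lower among the shortest, 15.7% and 5.53% among the middle, and 16.1% and 7.16% among the longest. The falls of ITGB1, TPM1, CLCA2, MT1E, WNT5A, SDC4, GPX1, RPS6 and SLC2A3 are in genes whose annotated 3' UTRs hold neither word. The sequences of the siRNAs in the pool were not used here, and the part of such words, or of 3' UTR length, in any change was not tested.

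**Figure D5:**
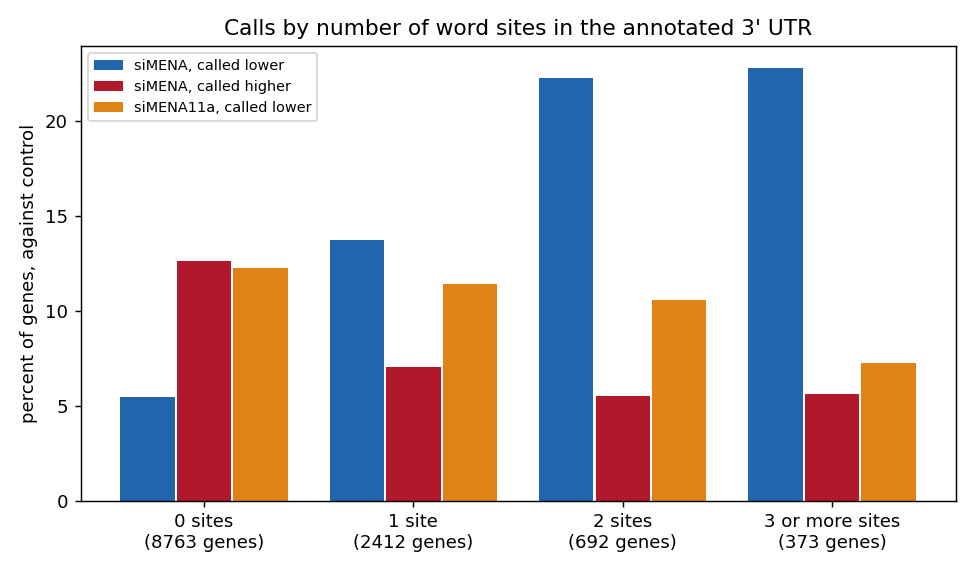
Percent of genes called lower in siMENA (blue), higher in siMENA (red) and lower in siMENA11a (orange), each against control, by the number of word sites in the annotated 3' UTR. The words were picked for the siMENA comparison. The blue bars go from 5.44% without a site to 22.8% with 3 or more, while the red bars go from 12.6% to 5.63%.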

How the data were processed

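RNA was measured in 9 libraries of H1650 cells by stranded total RNA sequencing after ribosomal RNA removal, 3 libraries per group, per the labels' protocols. The authors deposited 1 table of FPKM per gene and library, on hg19 per the submitters' processing notes. The aligner, quantifier and annotation were not given in the sources used here. Many values had lost their decimal point: of 11543 whole numbers 11524 were divided by 1000 (7.91% of values), and 1286 genes lacking a value were dropped.

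Values were taken as log2(FPKM + 1), and 13273 genes averaging 0.5 FPKM or more were tested in limma 3.58.1 (R 4.3.3) in 1 fit over all 9 libraries, with a mean-variance trend and Benjamini-Hochberg adjustment, called under 0.05. On simulated data with 100 genes changed at each size, 92 were recovered at a log2 change of 1 and 66 at 0.5. The simulated noise was independent between libraries, and scarce genes were not among those changed, so these rates do not describe scarce genes. Libraries with the same number deviated together between control and siMENA (correlations of 0.124, 0.378 and 0.196), most clearly number 2. Control and siMENA libraries of different numbers gave -0.242 to 0.113. Number 3 gave -0.030 between control and siMENA11a. The number was therefore also tried as a block. Other alternatives were other scalings, pseudocounts, filters and priors, only the 6 libraries, leaving out the repaired genes, and leaving out each library in turn.

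Named genes are ENAH, the 15 largest rises and falls among stable calls, up to 6 stable members per list, any member of lists of up to 20, the 10 most abundant stable calls of at least 1.5-fold, and the 8 largest opposite calls of the 2 pools. The members and lists were chosen with earlier results of these data known. The p-values measure the spread between these libraries. Some genes and 1 gene list are not reported here.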

Additional observations from a re-analysis of the deposited data

How the results depend on the processing

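The fall of ENAH kept its direction and its call under every alternative tried. For the 162 other genes named by rule 2487 of 2502 values stayed on their side of the threshold, 15 lost a call and none reversed. The losses were in 4 genes, S100A2, HIST3H2BB, SDCBP2 and EFTUD2. For the others, calls that hold without each library follow from the rule that chose them. Of 339 values of the 22 genes named from short lists, 320 stayed, 12 lost a call, 7 gained one and none reversed. Counts moved more. Without the genes that held a repaired value, 1293 genes were called against control, 730 higher and 563 lower, and 2716 between the pools, from fewer genes tested. Leaving out 1 library gave 1346 to 2020 calls, 650 to 1105 higher and 696 to 915 lower. The lowest counts came without siMENA replicate 1, and the total was also under the full count by more than 1.5 times without control replicate 1 (1555), control replicate 3 (1446) or siMENA replicate 2 (1572). With the replicate number as a block 3149 genes were called, 1740 higher and 1409 lower, and among the genes named that block changed no call other than those of ITGA5, ITGB4 and RELB. Median-ratio scaling called 1050 higher and 1345 lower. FPKM without counts leaves the counting error of scarce genes unknown.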
